A study of Rattus norvegicus with 16 samples.

Results

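Cultured rat hepatocytes treated with SQ1 were set directly against hepatocytes treated with pravastatin, gene by gene, on all 16 arrays of the study. Each array held RNA of 1 treated and 1 untreated culture. For each replicate number from 1 to 8, the log2 ratio of treated over untreated cells with pravastatin was subtracted from the same ratio with SQ1, which gave 8 differences for each gene. The cells were primary hepatocytes of male Sprague Dawley rats kept in Williams Medium E. Treatment started 48 hours after plating and lasted 48 hours, with SQ1 at 100 µM, pravastatin at 30 µM, and the control cultures untreated. The doses differ, so a difference between the drugs is a difference between these 2 treatments. The labels name no vehicle, and they do not say that replicates came from separate animals. The p-values then measure the spread between these samples, which may be technical in part.

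Hepatocytes make cholesterol from acetyl-CoA through mevalonate and farnesyl diphosphate. Farnesyl diphosphate is a branch point, because squalene synthase turns it into the first committed sterol precursor and other enzymes turn it into the isoprenoids of protein prenylation, dolichol and ubiquinone. Pravastatin, a statin, blocks the pathway far upstream of the branch, so both sterols and isoprenoids lose their supply. SQ1 is a name used for squalestatin 1, which inhibits squalene synthase and leaves the steps up to farnesyl diphosphate open. Loss of sterols releases the transcription factor SREBP2, which activates the enzymes of the pathway.

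After a filter on dim probes, 20789 genes were tested, 11940 of them with a symbol. The median of the ratios over all genes was 0.0073 with SQ1 and 0.0018 with pravastatin. Arrays of a drug correlated across genes at 0.752 to 0.956 for SQ1 and at 0.568 to 0.91 for pravastatin. Pravastatin replicate 1 stood apart. Its ratios had a median absolute deviation of 0.0515, against 0.13 to 0.17 on the other pravastatin arrays and 0.202 to 0.263 on the SQ1 arrays, and its mean correlation with its group was 0.624, against 0.679 to 0.762. On this array Idi1 stood at 4.52, and Acat2 at 3.89 against 3.68 to 4.12 on the other pravastatin arrays. The sterol exporters differed there, Abcg5 at 0.22 against 0.96 to 1.94 and Abcg1 at −0.31 against −1.54 to −0.96. All 21 hepatocyte function genes passed the filter. Of 10 lymphocyte and neutrophil markers 8 had a named probe and 3 passed, and of 11 endothelial markers 6 had one and 5 passed. No slide held both drugs, so drug and slide cannot be told apart. Drug names follow the scanner files and their labels. The columns of the deposited value table match the array with their number but of the other drug (correlation 0.9991 to 0.9999) better than the array of their own label (0.45 to 0.562). If the table had the right names, each difference between the drugs would turn its sign.

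The drugs differed over a large part of the transcriptome, mostly by small amounts. Of the 20789 genes, 9884 or 47.5% passed a two-sided limma test over the 8 differences at an adjusted p under 0.05 (Benjamini-Hochberg over all genes), with 4853 (23.3%) higher with SQ1 and 5031 (24.2%) lower. A gene is called higher or lower below only when it passed this test. With a difference of at least 1.5-fold required too, 869 genes remained (4.18%), 403 higher (1.94%) and 466 lower (2.24%). Without replicate 1 the counts were 9618 genes, and 896 at 1.5-fold. When each array was scaled to the same spread, they were 4400 and 480, and of the 169 genes named by rule 38 lost their call and 13 that passed in either setting turned in sign. Those described below are marked there. Most of the larger differences were changes with SQ1. Of the 403 genes that were higher, 267 rose by 1.5-fold or more with SQ1 and did not change by that much with pravastatin, 16 fell by that much with pravastatin alone, and 11 rose with SQ1 and fell with pravastatin. Of the 466 that were lower, 356 fell by that much with SQ1 alone and 55 fell with both. The 8 arrays of SQ1 lay above the 8 of pravastatin without overlap for 1119 genes (5.38%) and below them for 1181 (5.68%). Both drugs were set against control cultures of the same numbers, so their values against untreated cells are given side by side without a test of their relation. Against untreated cells, 32.6% of genes rose and 31.2% fell with SQ1, and 19.4% rose and 19.6% fell with pravastatin. In the plot of both drugs' changes, cholesterol synthesis lies along the diagonal, and many CAR, PXR and PPARalpha targets lie to the right of it.

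**Figure D1:**
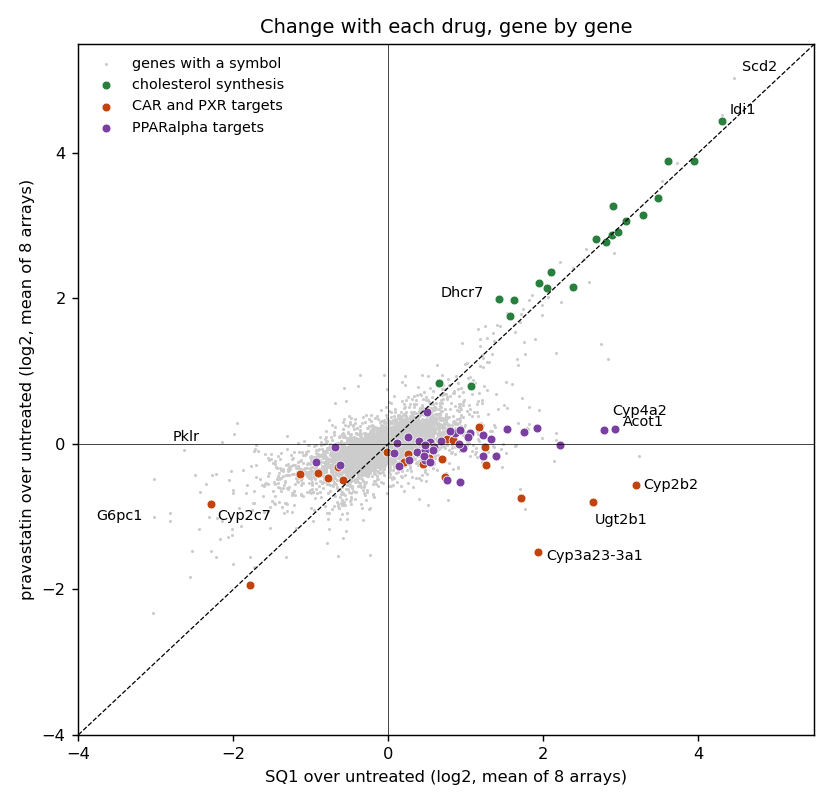
Log2 change with SQ1 (x axis) and with pravastatin (y axis) over untreated cells, each the mean of 8 arrays, for genes with a symbol, with 3 gene lists in colour and equality as a dashed line. Cyp2b2 stands at 3.19 with SQ1 and −0.57 with pravastatin, and Idi1 at 4.30 and 4.44.

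Cholesterol synthesis did not separate the drugs by much. All 20 measured enzymes rose with both drugs, by a median of 2.75 with SQ1 and 2.80 with pravastatin. In the direct comparison 2 were higher with SQ1 and 10 lower, none by 1.5-fold, with a median difference of −0.11 (0.03 in the first and −0.17 in the second culture series, the sets of 4 replicate numbers described in the methods). The shares here and in each list below are to be read against the 23.3% and 24.2% of all genes. Past 1.5-fold the shares of all genes were 1.94% higher and 2.24% lower, and without overlap 5.38% above and 5.68% below. When all arrays were scaled to the same spread, which enlarges the ratios of the pravastatin arrays, the median difference of the 20 enzymes was −2.01. The lower calls below of Hmgcs1, Fdps, Mvk, Fdft1, Dhcr7, Ebp and Tm7sf2 did not pass under that scaling. Their differences kept their direction and were larger, from −3.14 for Tm7sf2 to −1.26 for Mvk.

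Before the branch point the enzymes did not pass the test or were slightly lower with SQ1. Idi1, which isomerises isopentenyl diphosphate, rose most of the 20, by 4.30 with SQ1 and 4.44 with pravastatin. Its difference of −0.13 (95% interval −0.28 to 0.02, adjusted p = 0.14) did not pass, but within the second culture series it passed at −0.34. Mvd, the mevalonate diphosphate decarboxylase, had a difference of −0.0020 with an interval of −0.09 to 0.08. In this segment 4 enzymes were lower with SQ1. They were Hmgcs1, the HMG-CoA synthase, by 0.37 ± 0.06 (SE, n = 8 differences), Fdps, which makes farnesyl diphosphate, by 0.27 ± 0.06, Mvk, mevalonate kinase, by 0.18 ± 0.05, and Pmvk, the next kinase, by 0.09. Fdps and Mvk did not pass within the first series, at −0.09 and −0.08, and Mvk and Hmgcs1 did not pass with slide as a random block. Within the first series the sterol gene Acat2 passed as higher with SQ1, at 0.20. The median of this segment was 0.03 in the first series and −0.22 in the second.

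From the branch point on, the direction depended on the enzyme. Fdft1, squalene synthase itself and the target of SQ1, rose by 1.42, 1.63 and 1.85 (lowest, median and highest of 8 arrays) with SQ1 and by 1.80, 1.94 and 2.21 with pravastatin. The ranges overlapped at their edge, and Fdft1 was lower with SQ1 in 8 of 8 replicate numbers, by 0.35 ± 0.04 (adjusted p = 1.6e-05). Sqle, squalene epoxidase, and Cyp51, lanosterol demethylase, did not pass over all numbers (0.03 and 0.04), and both turned between the series, from 0.23 to −0.16 and from 0.22 to −0.13. Dhcr7, which takes the double bond out of 7-dehydrocholesterol, was the enzyme of this pathway whose arrays did not overlap. It rose by 1.13 to 1.72 with SQ1 and by 1.78 to 2.17 with pravastatin, a difference of −0.57 ± 0.04 (adjusted p = 3.9e-07). Ebp and Tm7sf2, also of the later steps, were lower with SQ1 by 0.27 and 0.28, Tm7sf2 not within the first series at −0.05. Sc5d, the lathosterol desaturase, was higher by 0.22. Lss and Hsd17b7 did not pass, at 0.10 and 0.13, but did within the first series at 0.23 and 0.28. With culture series as a term in the test Lss (adjusted p = 0.0105), Hsd17b7 (0.0047) and Idi1 (0.0076) passed by limma.

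**Figure D2:**
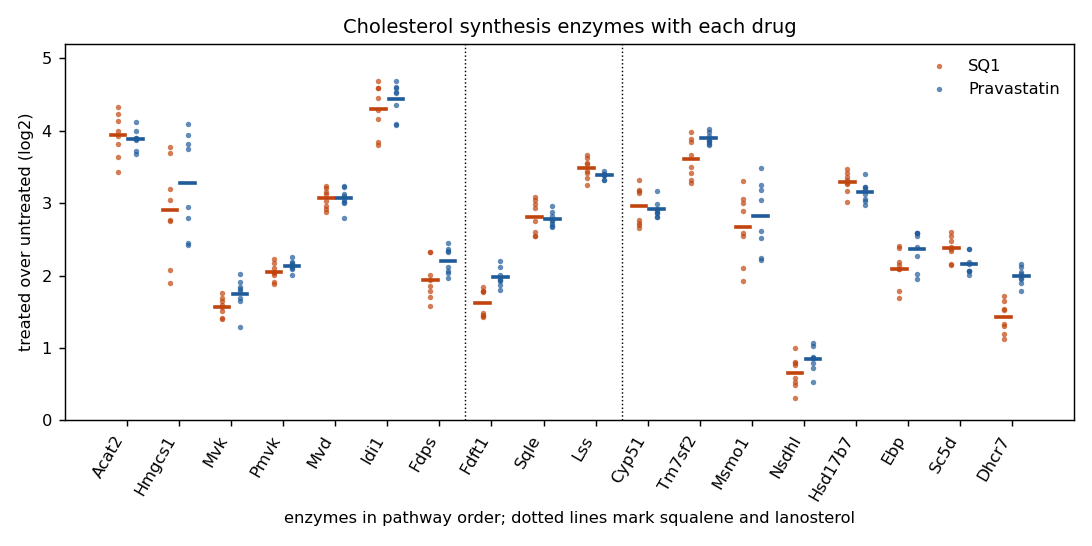
Log2 change over untreated cells (y axis) of 18 cholesterol synthesis enzymes in pathway order (x axis). Each of 8 arrays per drug has a point, with a bar at the mean. The dotted line named for squalene on the axis stands before Fdft1, the enzyme that makes squalene, and the other marks lanosterol. The points of both drugs overlap for each enzyme but Dhcr7, at means of 1.42 and 2.0.

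Genes that sense and take up sterols were split. Of 12 measured, 3 were higher and 5 lower with SQ1, against 23.3% and 24.2% of all genes. Their median was −0.11 (0.02 in the first series and −0.47 with scaled arrays). Insig1, which holds the SREBP complex in the endoplasmic reticulum, rose by 2.77 to 3.15 with SQ1 and 2.44 to 2.78 with pravastatin, and was higher with SQ1 by 0.29 ± 0.04. Insig2, its relative, fell with both drugs and further with SQ1, to −1.32 against −0.82, with no overlap between the arrays. Srebf2, the gene of SREBP2, rose by 0.39 with SQ1 and 0.79 with pravastatin, and was lower with SQ1 by 0.40 ± 0.05. Npc2, which moves cholesterol out of lysosomes, was higher with SQ1 by 0.38 and Npc1, its membrane partner, lower by 0.38. With arrays scaled to the same spread, Insig1, Insig2 and Npc2 turned in sign, and Srebf2 and Npc1 did not pass, at larger differences of −0.94 and −0.44.

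The isoprenoid branch, which the drugs are known to treat differently, showed mostly small differences in transcripts. Of 16 measured genes of isoprenoid synthesis and prenylation, 6 were higher and 3 lower with SQ1, against 23.3% and 24.2% of all genes. None differed by 1.5-fold, and the median was 0.03. Ggps1, which makes geranylgeranyl diphosphate, stood at 0.03 with SQ1 and 0.07 with pravastatin, with an interval of the difference of −0.13 to 0.04. Fntb, the subunit of farnesyltransferase, was lower with SQ1 by 0.31 ± 0.04, and its arrays did not overlap. Pdss2, of ubiquinone synthesis, was higher by 0.31 ± 0.05. Nus1, a subunit of the dolichol-making enzyme, was lower by 0.41, but its other probe gave 0.02. Of 28 small GTPases and partners, 9 were higher and 8 lower (median 0.00), against the same shares of all genes. Rhob, a GTPase whose transcript is known to respond to statins, rose with pravastatin by 0.15 to 0.42 and stood at −0.01 to 0.11 with SQ1, where it did not pass. The difference was −0.24 ± 0.03 with no overlap between the arrays, but the other Rhob probe gave −0.01 and with scaled arrays the difference was larger but did not pass (−0.41, adjusted p = 0.062). Rab7a, a GTPase of late endosomes, was lower with SQ1 by 0.61 ± 0.06 and was the member of the list past 1.5-fold. Rhoa was higher by 0.22 ± 0.04, and not with slide as a random block, and Cdc42 did not pass at −0.09.

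Of 12 YAP and TEAD targets, which respond to cell shape and tension, 9 were lower and none higher (median −0.28). Ccn2, the growth factor CTGF, fell with SQ1 by 0.49 and rose with pravastatin by 0.31, a difference of −0.80 ± 0.06 (adjusted p = 1.8e-07) with no overlap. Ankrd1, a YAP target, was lower by 0.60, and Ccn1 by 0.40. Actin and SRF targets did not lean one way. Of 17 measured 3 were higher and 5 lower, against 23.3% and 24.2% of all genes, with a median of −0.03 that became 0.06 with scaled arrays. Acta2, smooth muscle actin, was lower by 0.53. Among 5 Kruppel-like factors and related endothelial genes, Klf10 was lower by 1.44 ± 0.05, having fallen by 1.58 with SQ1 and standing at −0.14 with pravastatin. Klf2, a transcription factor known to rise with statins in endothelium, rose by 0.30 with pravastatin and stood at −0.04 with SQ1, a difference of −0.33 ± 0.03 in 8 of 8 replicate numbers. Klf4 rose by 1.24 with SQ1 and by 0.79 with pravastatin, but with scaled arrays its difference turned to −0.17.

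The widest gaps between the drugs were in the genes of drug metabolism. CAR and PXR are nuclear receptors that switch on cytochromes P450, conjugating enzymes and transporters in hepatocytes. Of 23 measured targets, 16 were higher with SQ1 and 5 lower, 13 and 2 of them by 1.5-fold (backgrounds 1.94% and 2.24%), with a median difference of 0.72 against 0.0025 over all genes. With SQ1 15 rose and 7 fell, and with pravastatin 1 rose and 19 fell. For 15 of the 23 the arrays of SQ1 lay above those of pravastatin (background 5.38%).

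Cyp2b2, a cytochrome P450 and classical CAR target, had the highest difference of all genes with a symbol. It rose by 2.64, 3.27 and 3.51 (lowest, median and highest of 8 arrays) with SQ1 and fell to −1.17, −0.49 and −0.18 with pravastatin. No array of either drug came near those of the other, and the difference of 3.76 ± 0.06 was 13.6-fold (adjusted p = 4.9e-13). Cyp2b21, a relative, rose by 2.93 to 3.56 with SQ1 and stood at −0.44 to −0.0044 with pravastatin, a difference of 3.40 ± 0.04. Ugt2b1, a glucuronosyltransferase, rose by 2.18 to 3.08 with SQ1 and fell to −1.42 to −0.33 with pravastatin (3.44 ± 0.11, adjusted p = 2.6e-10). Cyp3a23-3a1, the main PXR-induced P450 of the rat, rose by 1.5, 1.99 and 2.33 with SQ1 and fell to −2.10, −1.51 and −0.92 with pravastatin. Its difference was 3.43 ± 0.22, with a lower size in the first culture series (2.67) than in the second (4.18), and the difference between the series passed its own limma test (adjusted p = 2.15e-05). Cyp2c6v1 followed at 2.46 ± 0.06 and Cyp3a2 at 1.55 ± 0.08. In contrast to Cyp3a23-3a1, Cyp3a2 had a smaller difference in the second series (second minus first −0.51, adjusted p = 0.0109 by limma). Ephx1, the microsomal epoxide hydrolase, was higher by 1.18, Por, the P450 reductase, by 0.91, and Alas1, the first enzyme of haem synthesis, by 0.73, each without overlap. Members of the Cyp2b, Cyp3a and Ugt2b families are related in sequence, and probes may take signal from relatives, which could not be checked.

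Cyp2c7, a constitutive P450 of the same list, went the other way. It fell to −2.68 to −2.0 with SQ1 and by −1.29 to −0.38 with pravastatin, and was lower with SQ1 by 1.46 ± 0.06. Cyp3a18 fell with both drugs, to −1.78 and −1.94, and was higher with SQ1 by 0.16. That call was lost without the replicate block, with a random replicate or slide block, within the first series, and with scaled arrays (1.46, adjusted p = 0.138). The receptors themselves did not follow their targets. Nr1i2, the gene of PXR, fell to −0.72 with SQ1 and −0.20 with pravastatin, and was lower with SQ1 by 0.52 ± 0.04. Nr1i3, the gene of CAR, stood at −0.23 ± 0.14 (adjusted p = 0.19) with its brightest probe, and another probe gave −0.68.

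The Cyp3a promoters are shown because both genes were in the group that rose with SQ1 and fell with pravastatin. They are the 250 bases before the start of each gene, from RefSeq, assembly GRCr8, written 5′ to 3′ in the direction of the gene. Cyp3a23-3a1 lies at chr12:14398804-14399053 and Cyp3a2 at chr12:14343858-14344107, both on the minus strand. The capitals mark a direct repeat of AGTTCA with 3 bases between, read on the opposite strand.
Cyp3a23-3a1: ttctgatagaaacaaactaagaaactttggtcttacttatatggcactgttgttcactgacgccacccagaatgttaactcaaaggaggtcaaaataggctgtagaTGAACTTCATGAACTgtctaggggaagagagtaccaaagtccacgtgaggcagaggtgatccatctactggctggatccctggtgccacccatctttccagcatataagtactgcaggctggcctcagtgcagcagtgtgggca
Cyp3a2: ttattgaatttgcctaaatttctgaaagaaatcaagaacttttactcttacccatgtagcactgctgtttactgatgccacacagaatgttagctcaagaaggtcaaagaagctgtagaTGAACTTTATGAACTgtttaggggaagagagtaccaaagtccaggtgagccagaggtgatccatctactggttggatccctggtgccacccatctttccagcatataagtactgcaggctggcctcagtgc
In a search of both strands of all 33469 promoters of this length, that motif was found in these 2 and no other (0.00598%). The match begins 144 bases before the start of Cyp3a23-3a1 and 131 before that of Cyp3a2. Of the 23 measured CAR and PXR targets, 21 had an entry in the promoter table. A match is a description of letters and was searched with the values known. The 2 promoters are alike over most of their letters, so their matches are not separate finds.

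PPARalpha targets separated the drugs as a group. PPARalpha is the nuclear receptor that fatty acids and fibrates activate, and it drives their oxidation in peroxisomes and mitochondria. Of 39 measured targets 34 were higher with SQ1 and 3 lower (backgrounds 23.3% and 24.2%). Of the former 25 were higher by 1.5-fold (background 1.94%), and the median of the list was 0.70. With SQ1 35 rose and 3 fell, and with pravastatin 9 rose and 13 fell. For 30 of the 39 the SQ1 arrays lay above the pravastatin arrays (background 5.38%). The median was 0.65 in the first and 0.75 in the second culture series.

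Acot1, a cytosolic acyl-CoA thioesterase, rose by 2.71, 2.99 and 3.10 (lowest, median, highest) with SQ1 and stood at −0.04, 0.24 and 0.38 with pravastatin. The arrays were far apart and the difference of 2.73 ± 0.03 (6.61-fold) had an adjusted p = 9.7e-15. Cyp4a2, a fatty acid omega-hydroxylase, rose by 2.36 to 3.06 with SQ1 and ranged from −0.20 to 0.77 with pravastatin, a difference of 2.59 ± 0.06. Its relatives Cyp4a3 and Cyp4a1 were higher by 1.38 and 1.25, and their probes may share signal. Pdk4, which holds back pyruvate oxidation, was higher by 1.69 ± 0.11, and Ehhadh, of peroxisomal beta-oxidation, by 1.45 ± 0.06. Ehhadh rose by 0.92 with SQ1 and fell to −0.53 with pravastatin. Cpt1b, a carnitine palmitoyltransferase of muscle, was higher by 2.24, but its other probe gave 0.63. Cpt1a, the liver form, was higher by 0.50 and Plin2, the lipid droplet coat, by 0.78. Angptl4, an inhibitor of lipoprotein lipase, did not pass in the comparison, at 0.50 and 0.44 (difference 0.07, 95% interval −0.0017 to 0.14), but passed with the Agilent processed signals. Of 32 PPARalpha targets with a promoter entry, none held a direct repeat of AGGTCA with 1 base between, which 17 of all 33469 promoters hold (0.0508%). Fgf21, a secreted hormone of fasting, went the other way and was lower by 0.69 ± 0.07, though not with scaled arrays.

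**Figure D3:**
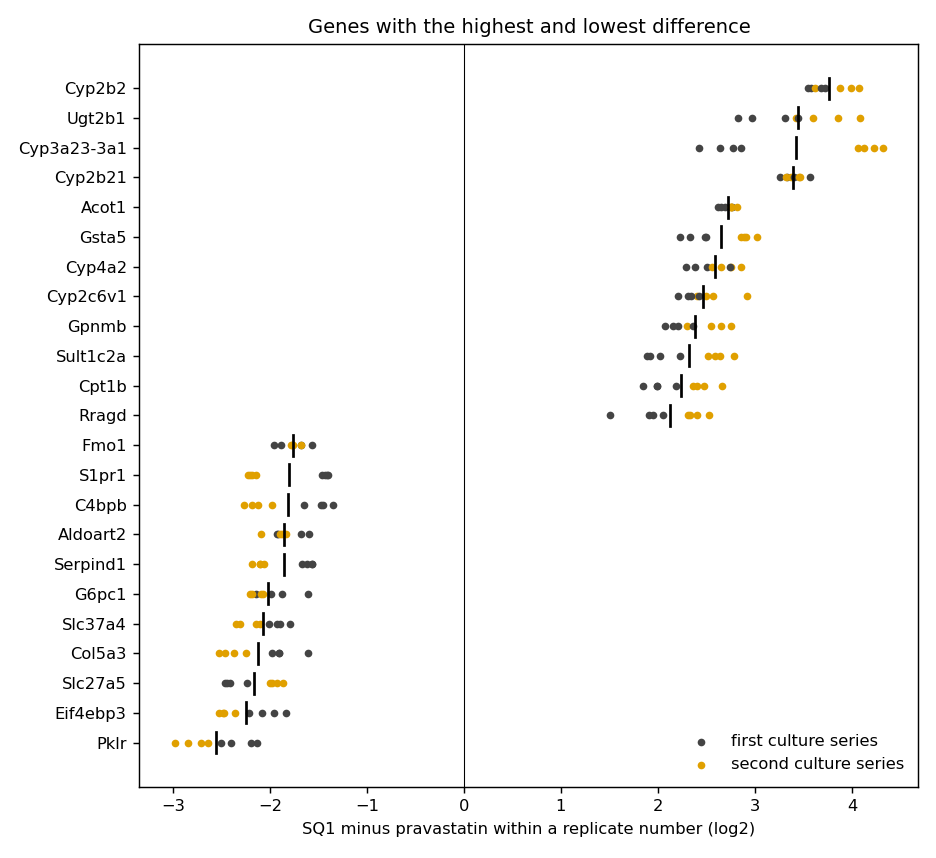
SQ1 minus pravastatin within each replicate number (log2, x axis) for the 12 highest and for 11 of the lowest genes with a symbol (y axis), with a point for each of 8 replicate numbers, coloured by culture series, and a bar at the mean. Cyp3a23-3a1 has separate clusters for the series, at means of 2.67 and 4.18, while Acot1 lies between 2.62 and 2.82.

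Other stress and xenobiotic genes were also mostly higher with SQ1. Of 15 NRF2 targets, the antioxidant genes, 13 were higher and 1 lower (median 0.50), 6 by 1.5-fold. Hmox1, haem oxygenase, rose by 1.0, 1.44 and 1.90 with SQ1 and fell to −0.44, −0.30 and −0.23 with pravastatin, a difference of 1.79 ± 0.08 (adjusted p = 3.3e-09) with the arrays apart. Gsta2, a glutathione transferase, was higher by 1.36 and Gsta5, of the same family, by 2.65 ± 0.08, and both rose with SQ1 and fell with pravastatin. Srxn1 was higher by 0.89 and Nqo1 by 0.20, the latter not within the second series at 0.09 and not with scaled arrays (0.33). Of 12 p53 targets 11 were higher (median 0.38, 0.24 with scaled arrays, none by 1.5-fold), among them Mdm2 by 0.42 and Phlda3 by 0.52. Cdkn1a was lower by 0.23 on its brightest probe and at 0.02 on another. All 6 measured heat shock genes were higher, by a median of 0.35, with Hspb1 at 0.40. Of 16 genes of endoplasmic reticulum stress 7 were higher and 5 lower. Atf3 and Ddit3, of the integrated stress response, were higher by 0.77 and 0.74, and the chaperone Hsp90b1 was lower by 0.69.

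AHR targets did not move together. Cyp1a2 rose with SQ1 by 0.40 to 1.29 and fell with pravastatin, to between −1.22 and −0.26, a difference of 1.55 ± 0.07. Cyp1a1 rose with pravastatin by 0.47 to 1.71 and ranged from −0.41 to 0.51 with SQ1, where it did not pass, so it was lower with SQ1 by 1.01 ± 0.09. Ugt1a6 was higher by 1.19. With 3 of 6 genes measured, the median was 1.19, and −0.03 when dim probes were kept.

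Genes of glucose handling were more often lower than higher with SQ1. Of 13 measured genes 8 were lower and 3 higher (median −0.34, and −0.10 with scaled arrays), 5 and 2 of them by 1.5-fold. Pklr, the liver pyruvate kinase, had the lowest difference of all genes with a symbol. It fell to −3.16, −2.60 and −2.15 with SQ1 and stood at −0.32, −0.15 and 0.36 with pravastatin. The arrays did not overlap, and the difference of −2.55 ± 0.08 was 5.86-fold (adjusted p = 2.5e-10). G6pc1, the glucose-6-phosphatase, fell with both drugs, to −3.02 and −1.0, and was lower with SQ1 by 2.02 ± 0.06. Slc37a4, the transporter that feeds it, was lower by 2.07 ± 0.06 and Slc2a2, the glucose transporter GLUT2, by 1.24 ± 0.06. With scaled arrays G6pc1 did not pass.

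The promoter of Pklr is shown as that of the gene with the lowest difference. The window of 250 bases lies at chr2:176841014-176841263 on the plus strand (GRCr8, RefSeq), and the capitals mark the letters of a carbohydrate response element, CACGNG and CNCGTG with 5 bases between, which begin 168 bases before the start.
Pklr: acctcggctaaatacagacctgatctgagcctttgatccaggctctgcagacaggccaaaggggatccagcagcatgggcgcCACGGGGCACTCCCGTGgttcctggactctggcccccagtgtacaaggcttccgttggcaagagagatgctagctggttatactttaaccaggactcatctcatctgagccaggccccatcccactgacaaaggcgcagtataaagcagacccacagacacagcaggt
This motif reads alike on both strands and was found in 7 of the 33469 promoters (0.0209%). Of the 7 genes, 5 were measured, and the differences of the other 4 were −0.29 for Nup62, −0.08 for Smim7, 0.05 for Hes1 and 0.21 for Irak1. Those genes were named for their promoters. Of 12 glucose genes with a promoter entry, Pklr was the 1 with a match. Of 15 cholesterol enzymes with an entry, none held the sterol regulatory element searched, TCAC and CCAC with 1 base between, which 0.974% of all promoters hold. No match says only that these letters are not in this window.

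Fat synthesis was split between enzymes that rose alike and enzymes that separated the drugs. Of 16 measured genes 5 were higher and 8 lower with SQ1, 1 and 5 by 1.5-fold (median −0.11, −0.02 in the first and −0.32 in the second series, and −0.49 with scaled arrays). Acly, which makes cytosolic acetyl-CoA, fell by 0.69 with SQ1 and rose by 0.56 with pravastatin, without overlap (−1.24 ± 0.11, adjusted p = 1.2e-06). Fasn, fatty acid synthase, rose by 0.94 with pravastatin and stood at 0.21 with SQ1, where it did not pass. Thrsp, a lipogenic regulator, was lower by 1.0, Lpin1, a phosphatidate phosphatase, by 0.82 and Scd, a desaturase, by 0.92. Scd2, its relative, rose by 4.12 to 4.59 with SQ1 and 3.95 to 5.64 with pravastatin, and its difference of −0.57 ± 0.11 did not pass within the first series at −0.22 or with slide as a random block (adjusted p = 0.052). With scaled arrays Thrsp and Scd did not pass, nor did Scd2, whose difference was larger (−3.74). Of 8 LXR targets, genes switched on by oxysterols, 5 were higher and 1 lower (median 0.26). Lpcat3, a phospholipid remodelling enzyme, was higher by 0.45 ± 0.03 and Smpdl3a by 0.37 ± 0.03. Abcg1, a sterol exporter, was higher by 0.41 ± 0.09 and Abcg5 by 0.52 ± 0.14. Both had replicate 1 far from the rest, and without it their differences were 0.53 and 0.35. Neither passed with slide as a random block, and Abcg5 did not with the Agilent processed signals and turned to −0.09 with scaled arrays. Abca1 was higher by 0.15 ± 0.04, but not without the replicate block, with slide as a random block or with scaled arrays, where it was larger (0.25).

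Genes of differentiated liver function were mostly lower with SQ1. Of 21 hepatocyte function genes 18 were lower and 2 higher (median −0.40), 8 of the former by 1.5-fold. The drugs lowered most of them, 20 with SQ1 and 18 with pravastatin. Cps1, of the urea cycle, fell to −1.59 with SQ1 and −0.55 with pravastatin, and Cyp2c11, the male-specific P450, to −2.14 and −1.06. Alb, albumin, was lower by 0.31 ± 0.05. Apoa1, the apolipoprotein of HDL, fell by 0.54 with SQ1 and rose by 0.60 with pravastatin. With arrays scaled to the same spread the median was 0.0030, Alb turned to 0.12, and Cps1 and Cyp2c11 did not pass.

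Of 18 genes of bile acid synthesis and transport 14 were lower and 2 higher (median −0.39, and −0.0024 with scaled arrays). Slc27a5, the ligase that reactivates bile acids, fell to −2.52, −2.09 and −1.92 with SQ1 and ranged over −0.29, 0.00 and 0.30 with pravastatin, a difference of −2.16 ± 0.07 (adjusted p = 2.5e-10). Cyp8b1, which sets the share of cholic acid, was lower by 1.56 ± 0.04, Baat, which conjugates bile acids, by 1.09, and Slc10a1, the uptake transporter NTCP, by 1.06, and with scaled arrays Baat did not pass and Slc10a1 turned to 0.11. Cyp7a1, the rate-limiting enzyme, fell with both drugs, to −1.74 and −1.70 (difference −0.04, 95% interval −0.31 to 0.23), and its pravastatin value on replicate 1 was −0.48 against −2.20 to −1.72 on the others. Its difference was 0.11 without replicate 1, 0.27 with the Agilent processed signals and 0.71 with scaled arrays, and passed in the last 2. Nr0b2, the repressor SHP, fell to −0.66 with SQ1 and −1.54 with pravastatin and was higher with SQ1 by 0.88 ± 0.14 (1.04 without replicate 1).

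Of 18 acute phase and inflammation genes 12 were lower with SQ1 and 2 higher (median −0.26, −0.15 in the first and −0.62 in the second series, and 0.02 with scaled arrays). Fgb and Fga, fibrinogen chains, were lower by 0.99 and 0.81, and Cxcl1, a chemokine, by 0.87. Crp, the C-reactive protein, was higher by 0.96 ± 0.05. With scaled arrays Fgb, Fga and Crp did not pass. Ccl2 was lower by 0.29, but stood at 0.06 in the first series, did not pass without replicate 3, 4, 7 or 8 (−0.24 to −0.23), with slide as a random block (adjusted p = 0.065) or with the Agilent processed signals (0.074), and with scaled arrays stood at −0.00055. A2m turned from 0.28 in the first series to −0.69 in the second, and over all numbers its −0.21 passed with culture series as a term. Hamp, the iron hormone hepcidin, fell by 0.57 with SQ1 and rose by 0.76 with pravastatin, −1.34 ± 0.10 without overlap.

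**Figure D4:**
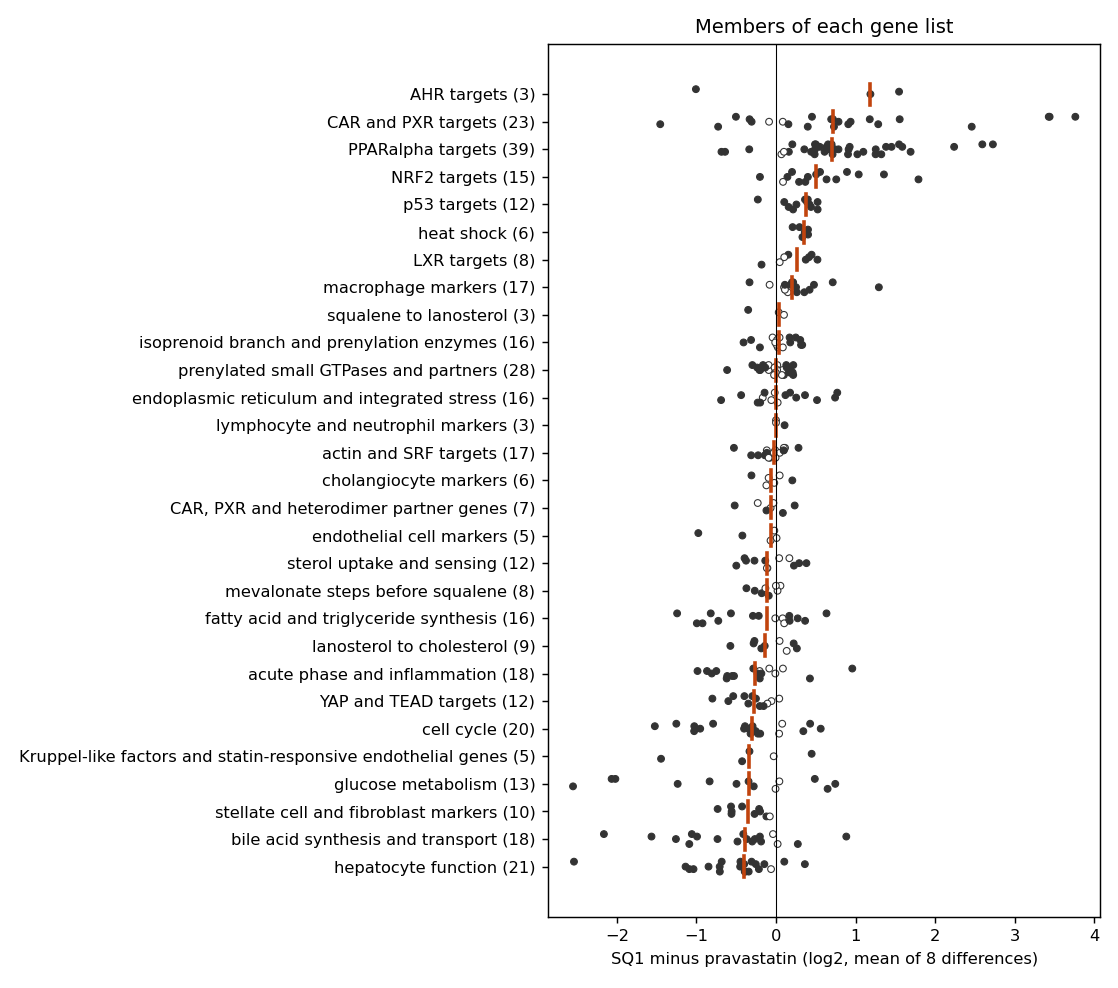
SQ1 minus pravastatin (log2, x axis, mean of 8 differences) for each measured member of each gene list (y axis, with the number measured), ordered by median; filled points passed the test, open points did not, and red bars are list medians. PPARalpha targets have a median of 0.70 and hepatocyte function genes one of −0.40.

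The cell cycle was lower with SQ1. Of 20 measured genes 15 were lower and 3 higher (median −0.31), 6 of the former by 1.5-fold. Cdk1, the mitotic kinase, fell to −1.81 to −1.54 with SQ1 and by −0.60 to −0.22 with pravastatin, a difference of −1.25 ± 0.03 (adjusted p = 3.1e-11). Rrm2, which supplies deoxynucleotides, was lower by 1.52 ± 0.05 and Ccna2 and Ccnb2, mitotic cyclins, by 1.03 each. Hepatocytes and other cells of the culture both express these genes.

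Markers of other liver cells went in different directions by cell type. All 17 macrophage markers fell with both drugs, and 11 were higher and 1 lower with SQ1 (median 0.20, and 0.71 with scaled arrays). Over arrays the median of the 17 ran from −0.69 to −0.39 with SQ1 and from −0.94 to −0.61 with pravastatin. Clec4f, a lectin of Kupffer cells, fell by 0.24 with SQ1 and 1.53 with pravastatin, and was higher with SQ1 by 1.29 ± 0.07 (1.37 without replicate 1). Cd68 was higher by 0.71, Cd163 by 0.48 and C1qc by 0.42, each without overlap, though with scaled arrays Cd163 and C1qc had larger differences that did not pass (1.02 and 1.05, adjusted p = 0.066 and 0.078). Marco did not pass at 0.12, but did with scaled arrays and with the Agilent processed signals (0.28 in both). Stellate cell and fibroblast markers went the other way, with 9 of 10 lower with SQ1 and none higher (median −0.35, and −0.19 with scaled arrays). Their median over arrays ran from −0.59 to −0.28 with SQ1 and from −0.19 to −0.02 with pravastatin. Col1a1 was lower by 0.73, with −0.17 on its other probe, and Col3a1 and Pdgfrb by 0.56 and 0.57, Pdgfrb not with scaled arrays. Of 5 endothelial markers Lyve1 was lower by 0.98 ± 0.07 and Kdr by 0.42 ± 0.04, while Pecam1 and Eng did not pass. Of 6 cholangiocyte markers 1 was higher and 1 lower with SQ1, and 4 did not pass (median −0.06). The higher one was Epcam, by 0.20 (−0.17 with scaled arrays). Fewer cells of a type and less RNA per cell cannot be told apart in these cultures. The part of other cell types in the lower cell cycle, YAP, Kruppel-like factor and inflammation genes was not tested.

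**Figure D5:**
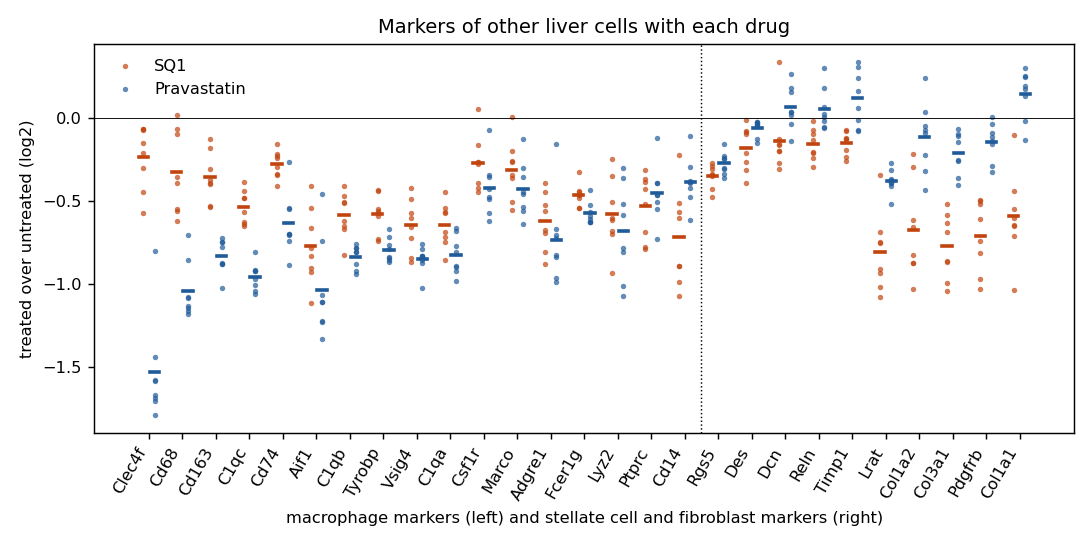
Log2 change over untreated cells (y axis) of 17 macrophage markers (left of the dotted line) and 10 stellate cell and fibroblast markers (right), with a point for each of 8 arrays per drug and a bar at the mean. Clec4f stands at −0.24 with SQ1 and −1.53 with pravastatin, and Col3a1 at −0.77 and −0.21.

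In opposite directions against untreated cells, and different in the direct test, were 634 genes (3.05%), 432 with a symbol. Of these 247 rose with SQ1 and fell with pravastatin, and 185 did the reverse. The 10 with the largest smaller change were 7 that rose with SQ1, which were Cyp3a23-3a1, Gsta5, Ugt2b1, Cyp1a2, Cyp2c6v1, Sult1c2a and Cyp2b2, and 3 that fell with it, Hamp, Acly and Apoa1. All 7 of the former encode enzymes of drug metabolism. Sult1c2a, a sulfotransferase, rose by 1.47 to 2.01 with SQ1 and fell to −0.81 to −0.39 with pravastatin.

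Among the 12 lowest genes several belong to none of the lists above. Eif4ebp3, a repressor of cap-dependent translation, fell to −2.36 to −1.56 with SQ1 and rose by 0.13 to 0.43 with pravastatin, a difference of −2.24 ± 0.07. Col5a3, a collagen chain, was lower by 2.13 ± 0.09, and S1pr1, a receptor for sphingosine 1-phosphate, by 1.81 ± 0.11. Serpind1, heparin cofactor II, and C4bpb, a complement regulator, are secreted by hepatocytes and were lower by 1.86 and 1.81. Fmo1, a flavin monooxygenase, was lower by 1.76 ± 0.04 and Aldoart2 by 1.85 ± 0.05. The differences of Eif4ebp3, Col5a3, S1pr1, Serpind1 and C4bpb were larger in the second culture series by limma. The change was largest for S1pr1 (second minus first −0.76, adjusted p = 3.35e-05). Serpind1 and Fmo1 did not pass with scaled arrays. These genes fell with SQ1 and, apart from Eif4ebp3 and Col5a3, less far with pravastatin.

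Many genes were alike with both drugs to within a stated width. There were 2511 genes with a symbol that passed against untreated cells in the same direction with both drugs and met this width. Symbols that start with LOC, RGD or AABR were not counted among them, and 11940 genes with a symbol of any kind were tested. The 95% interval of their difference lay within −0.3 to 0.3. Among those with the largest change were the sterol genes Idi1, Acat2, Lss, Hsd17b7, Mvd and Cyp51 and, outside the pathway, Hba-a1, a haemoglobin chain. Alike here holds over all 8 numbers and not within each culture series. In the first series Acat2 (0.20), Lss (0.23), Hsd17b7 (0.28) and Cyp51 (0.22) passed as higher with SQ1. In the second Idi1 (−0.34) and Cyp51 (−0.13) passed as lower. Hba-a1 rose by 2.84 to 3.11 with SQ1 and by 2.76 to 3.10 with pravastatin, with an interval of the difference of −0.06 to 0.15. With scaled arrays the differences of these 7 ran from −3.49 to −2.10 and did not pass.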

How the data were processed

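The deposited scanner files hold, per the file headers, spot and background medians per dye, an intensity in arbitrary units, from Agilent Feature Extraction. Per the file headers, the authors' ratio column is the log10 of red over green processed signal, and it was not used for any result. The deposited value table, in log2 of treated over untreated, served only to check array names. Alexa dyes were swapped on 4 of 8 arrays of each drug, and the sign of each ratio was taken from the labels.

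In R 4.3.3 with limma 3.58.1, background was removed by normexp (offset 50) and loess was applied within arrays with a weight of 0 on controls. Non-uniform spots, at most 27 on an array, were left out, and no spot was saturated. Median signals were used because the scanner files hold no mean signals. Spots of a probe were averaged, a probe was kept if 6 or more of its 32 channel measurements were well above background, and the brightest probe stood for a gene. Symbols came from RefSeq accessions through assembly GRCr8, which named 17998 of 30367 probes. The files state the build rn4, so promoters are placed on GRCr8 alone. The number of arrays limits the precision.

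The limma model was fitted to the 8 differences, so that the replicate number is the block. Same-numbered arrays share dye orientation and, by their file names, the control culture. Their residuals correlated at 0.142 to 0.629, each over 0.1. Each drug against untreated was fitted over 16 arrays with a dye term. File names split the arrays into 2 culture series of 4 replicate numbers each (1, 2, 5 and 6, then 3, 4, 7 and 8), which coincide with 2 scan days. Each of 4 slides held 1 drug and 1 series. Values are log2, an error is an SE with n = 8 differences, and tests are two-sided. The script was tested on simulated data.

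The genes named were those marked as key in the lists, the 12 highest and 12 lowest differences with 1 sign in 8 of 8 numbers, the 10 largest opposite changes, up to 4 per list with the largest difference, and the 8 largest changes alike within 0.3. Pmvk and Sc5d are outside this rule and were chosen after their values were seen, and some genes inside it are not reported here. Members and lists were chosen with earlier results of these data known, and no set test was run. Other settings tried were no, random or slide blocks, culture series as a term, each series, 3 other scalings or signals, other background and filter settings, probe means, and each replicate left out.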

Additional observations from a re-analysis of the deposited data

Results flagged for a closer look

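For 10 of the 169 named genes, 1 of the 8 differences between SQ1 and pravastatin lay far from the other 7, by Dixon's criterion. Chance flags about 1 group in 20. In 8 of the 10 the distant value was that of replicate 1, whose pravastatin array had the narrowest ratios. It was −0.40 for Abcg1 (others 0.41 to 0.68), 1.72 for Abcg5 (others up to 0.59), 0.73 for Clec4f (others 1.21 to 1.51) and −0.19 for Nr0b2 (others 0.70 to 1.44). It was −1.09 for Cyp7a1 (others from −0.11), −0.97 for Cyp2e1, an alcohol-metabolising P450 (others from −0.36), 0.22 for Mvk (others up to −0.13) and 0.29 for Cftr, a bile duct channel (others up to −0.07). Without replicate 1 the mean differences were 0.53 for Abcg1, 0.35 for Abcg5, 1.37 for Clec4f, 1.04 for Nr0b2, 0.11 for Cyp7a1, −0.25 for Cyp2e1, −0.24 for Mvk and −0.18 for Cftr. Of these Cftr passed the test without replicate 1 (adjusted p = 0.0014) and not with it (adjusted p = 0.090).

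For Cyp1a2 the distant value was 2.10 on replicate 5 (others up to 1.64), and the difference was 1.47 without it. For Cdc42 it was −0.46 on replicate 8 (others from −0.14), and the difference was −0.04 without it.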

How the results depend on the processing

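The replicate number was the block of the test. With no replicate block, 4 of 169 named genes lost their call (Abca1 at 0.15, Cyp2e1 at −0.34, Cyp3a18 at 0.16 and Rxrb at −0.12), and with a random replicate block (correlation 0.393) 2 did. Neither turned the direction of any named gene, but the balanced design fixed this, because these blocks alter the errors and not the differences. Replicates 2, 7 and 8 correlated more with another number than with their partner (0.36, 0.391 and 0.33). With slide as a random block 5684 genes passed (2745 higher, 2939 lower), and 14 named genes lost their call. With each replicate left out in turn, 9027 to 9618 genes passed, 4404 to 4715 higher and 4620 to 4903 lower, with 823 to 906 at 1.5-fold, and no named gene that passed turned. The small differences of Abcb11, Cyp7a1, Mvd, Nkg7, S100a8 and Sqle, which did not pass, changed sign in some of these fits. With culture series as a term 10340 genes passed, and Idi1, Lss, Hsd17b7 and A2m passed too.

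Within the first culture series the medians were −0.049 from lanosterol to cholesterol, −0.21 for Kruppel-like factors, 0.021 for sterol uptake, 0.38 for NRF2, 0.31 for p53 and 0.025 over all cholesterol steps. A2m turned to 0.28 and Ccl2 to 0.055. Within the second they were −0.32 for fat synthesis, −0.62 for acute phase and 0.12 for lymphocyte markers, and Cyp51 turned to −0.13 and Sqle to −0.16. Between the series 440 of the 20789 genes differed.

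With the Agilent processed signals 1618 genes passed at 1.5-fold (685 higher, 933 lower), the medians were −0.46 for Kruppel-like factors, −0.21 for CAR, PXR and partner genes, −0.38 for cell cycle, 0.29 for macrophage and 0.15 for lymphocyte markers, and Cyp7a1 turned to 0.27. With no background correction 578 passed at 1.5-fold (294 lower), with medians of −0.15 for Kruppel-like factors, 0.15 for LXR, −0.19 for cell cycle and 0.31 for p53. With no filter the medians were −0.19 for Kruppel-like factors, 0.15 for LXR and −0.027 for AHR. With median centring in place of loess 59.1% of the calls were higher with SQ1, against 49.1%, and the medians were −0.036 from lanosterol to cholesterol, 0.10 for isoprenoid genes and 0.58 for NRF2.

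Scaling each array to the same spread, which by its construction enlarges the pravastatin ratios and those of replicate 1 most, moved most. It gave 4400 calls (2275 higher, 2125 lower), 480 at 1.5-fold (197 lower). The medians were −2.08 before squalene, −2.05 to lanosterol, −1.97 to cholesterol and −2.01 over all steps. They were −0.24 for Kruppel-like factors, −0.47 for sterol uptake, −0.49 for fat synthesis, 0.57 for CAR and PXR, 0.55 for PPARalpha, 0.71 for NRF2, 0.064 for actin and 0.0030 for hepatocyte function. They were −0.0024 for bile acids, −0.10 for glucose, −0.21 for cell cycle, 0.24 for p53, 0.016 for acute phase, 0.71 for macrophage and −0.19 for stellate markers. In sign, 13 named genes that passed in either setting turned: Abcg5 (−0.090), Alb (0.12), Cyp2e1 (0.59), Cyp7a1 (0.71), Epcam (−0.17), Fads1 (−1.38), Insig1 (−1.72), Insig2 (0.15), Klf4 (−0.17), Npc2 (−0.16), Rnd3 (0.0092), Rxrb (0.084) and Slc10a1 (0.11). The cause was not tested in the other cases. Signal over background limits the dimmest genes, and Cftr, Nkg7, S100a9 and Cnn1 were not above background on every array.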

Other observations

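The lists in this section were written after the values were seen, so their counts describe the genes and support nothing. Lysosomal genes stood higher with SQ1. Of 37 measured genes of lysosome biogenesis and nutrient sensing, 31 were higher and 2 lower (23.3% and 24.2% of all genes), 10 of the former by 1.5-fold, with a median of 0.38. With SQ1 29 rose and 3 fell, and with pravastatin 12 rose and 9 fell. Gpnmb, a membrane glycoprotein of lysosomes, rose by 1.91, 2.09 and 2.41 (lowest, median and highest array) with SQ1 and ranged over −0.53, −0.23 and 0.05 with pravastatin. Rragd, a GTPase that signals amino acid supply to mTORC1, rose by 1.61 to 2.51 with SQ1 and stood at −0.02 to 0.10 with pravastatin. Flcn, folliculin, which acts on the same GTPases, was higher by 0.93, and Rraga was lower by 0.12. Subunits of the proton pump were higher too, Atp6v0d2 by 1.16 and Atp6v1d by 0.91, as were the hydrolases Ctsl by 0.68 and Neu1 by 0.57. Nceh1, a neutral hydrolase of cholesteryl esters that is not a lysosomal enzyme, rose by 1.81 with SQ1 and by 0.27 with pravastatin. Tfeb, the transcription factor of lysosome genes, was higher by 0.11, and Ctsb did not pass at −0.06. Lipa, the acid lipase, was higher by 0.17. Gpnmb is also expressed by macrophages, whose 17 markers fell with both drugs.

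Genes of fructose and glucose use formed a second group. Of 16 measured, 14 were lower with SQ1 and none higher, 13 by 1.5-fold, with a median of −1.20 (−1.06 in the first and −1.32 in the second culture series), and for 14 the SQ1 arrays lay below the pravastatin arrays (background 5.68%). Besides Pklr they included Khk, ketohexokinase, lower by 1.17, Slc2a5, the fructose transporter, by 1.51, Tkfc, triokinase, by 1.12, Txnip by 0.92 and Tm6sf2 by 1.37. Mlxipl, the gene of the carbohydrate response factor ChREBP, was lower by 0.52. Mlx, its partner, did not pass at −0.02, nor did Acacb at 0.08. The conjugating enzymes as a whole were evenly split, 15 higher and 14 lower of 36 measured (median 0.04). Gstk1 was higher by 1.05 and Sult1c2 by 1.53, whereas Sult1a1 was lower by 1.14 and Gstm2 by 0.76. Probes of these families may share signal.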
